A study of Homo sapiens with 6 samples.

Results

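The members described here are the genes of TKTL1 and of enzymes of the pentose phosphate pathway, read as mRNA in MDA-MB-231 cells, an established line of triple-negative breast cancer. They were chosen by name as the rows of the deposited count table whose symbol was TKTL1, TKT, TKTL2, PGLS, PGD, RPIA, RPE or TALDO1, and all 8 were among its 17100 transcripts. The 8 also passed the filter on low counts, which left 13322 genes, although TKTL1 passed it by its counts in the treated cells alone. TKTL1 was put at the head of the list because of its difference between these very samples, so that its values and those of the other members are given as a description and were not tested.

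RNA was sequenced from 3 libraries of cells given vehicle and 3 libraries of cells given SGI-110 (guadecitabine) at 1 µM for 96 h and then kept for 24 h without drug. Guadecitabine is a dinucleotide that releases decitabine, a nucleoside that is built into DNA and traps DNA methyltransferases, so that methylation is lost as cells divide. All 6 libraries came from this 1 cell line, so that they say nothing of other lines or of tumors. The methods of the study say that the RNA came from independent experiments, and the labels do not say whether libraries with the same number share an experiment. The SDs given below are the spread between the 3 libraries of a group. The SEs of log2 fold changes come from the fit across all genes.

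The pentose phosphate pathway takes glucose 6-phosphate away from glycolysis. Its oxidative branch yields NADPH, the reducing power for lipid synthesis and for glutathione, and ribulose 5-phosphate, and its non-oxidative branch interconverts sugar phosphates, which links ribose for nucleotides back to glycolysis. Transketolase, the product of TKT, moves carbon units between sugars with thiamine diphosphate as cofactor. TKTL1 is a relative of TKT on the X chromosome that lacks a stretch that is conserved in TKT, is expressed in testis and has been studied in many tumors, and whether it has transketolase activity has been disputed. TKTL2 is a further family member without introns.

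The vehicle libraries held 17602570 to 22277442 counts in total and the guadecitabine libraries 8792127 to 21410849, with guadecitabine replicate 2 the shallowest. Vehicle replicate 3 stood apart from the other libraries in that it held low counts of nearly every gene: of 2038 genes with 0 counts in vehicle replicates 1 and 2, 2030 had counts in vehicle replicate 3, with a median of 19 counts. This bears on TKTL1 and TKTL2, and both are given below with and without that library. Of the markers of this cell line, all 5 were high, with a summed level of 105671 to 108298 normalised counts in the vehicle libraries and 123938 to 143037 in the guadecitabine libraries. Of markers listed as lacking in the line, ESR1 and PGR had at most 1 count outside vehicle replicate 3, where they had 67 and 43 counts. ERBB2 had 552 to 1974 counts, and CDH1 had 38, 25 and 87 counts in the vehicle libraries and 20, 6 and 13 in the guadecitabine libraries. Markers of leukocytes, endothelium and fibroblasts summed to at most 239, 142 and 95 normalised counts in any library, each at its highest in vehicle replicate 3. In bulk RNA, fewer cells of a type and less RNA per cell cannot be told apart.

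On the hg19 build, TKTL1 lies at chrX:153524027-153558713 on the plus strand, in 13 exons. TKT lies at chr3:53258723-53290130 on the minus strand, in 14 exons, and TKTL2 lies at chr4:164392247-164395047 on the minus strand, in 1 exon. The other members lie on autosomes: PGLS at chr19:17622432-17632097 in 5 exons, PGD at chr1:10459049-10480568 in 13, RPIA at chr2:88991176-89050452 in 9, RPE at chr2:210867289-210886984 in 6 and TALDO1 at chr11:747432-765024 in 8, all on the plus strand. Exon numbers and exon bases are those of GENCODE transcripts, which can differ from the RefSeq transcripts that were counted. No stretch of 50 exon bases was shared between the transketolase genes. In each of the 3, 100% of such stretches occurred once in the genome, so that their reads can be told apart. As guadecitabine acts on methylation of CpG dinucleotides, the sequence before the start of each transketolase gene is shown, from RefSeq (GRCh38.p14), each found once on GRCh37. It is given 5′ to 3′ on the strand of the gene, up to the deposited start of the transcript, with each CpG in capitals.
TKTL1: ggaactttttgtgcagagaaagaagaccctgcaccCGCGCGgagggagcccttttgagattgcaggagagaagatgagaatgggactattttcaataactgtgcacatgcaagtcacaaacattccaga
TKT: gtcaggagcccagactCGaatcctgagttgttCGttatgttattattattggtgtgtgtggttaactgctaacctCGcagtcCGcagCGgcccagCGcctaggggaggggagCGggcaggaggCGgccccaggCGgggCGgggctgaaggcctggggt
TKTL2: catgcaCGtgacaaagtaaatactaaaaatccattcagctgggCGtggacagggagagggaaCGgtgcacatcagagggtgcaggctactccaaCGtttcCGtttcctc
The stretch of TKTL1 is chrX:153523898-153524026 and holds 3 CpGs in 129 bases, that of TKT is chr3:53290131-53290288 with 10 in 158 bases, and that of TKTL2 is chr4:164395048-164395156 with 5 in 109 bases. The motif searched was CG, which reads the same on both strands. In the RefSeq windows of 250 bases before and 50 bases after the start, which run further into the genes, TKTL1 had 18 CpGs, TKTL2 had 24 and TKT had 31, against a median of 14 over 35116 windows. As many CpGs or more were in 44.5% of all windows for TKTL1, in 33.9% for TKTL2 and in 20.7% for TKT, and 96.0% of windows held at least 1. RefSeq gives TKTL1 a further start inside the gene, whose window at chrX:153533272-153533571 had 8 CpGs, a number that 60.7% of windows reached. The other members lay between 24 CpGs for RPE and 44 for TALDO1. These counts describe sequence only, and methylation of these stretches was not analysed here.

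TKTL1 was next to silent in vehicle-treated cells and was abundant after guadecitabine. It had 0, 0 and 7 counts in vehicle replicates 1, 2 and 3, against 3350, 1153 and 2855 counts in guadecitabine replicates 1, 2 and 3. Scaled for depth, the guadecitabine libraries held 2712, 2347 and 2882 normalised counts. The lower raw count of guadecitabine replicate 2 went with its smaller total, and the 3 treated libraries lay within a narrow range, far above all vehicle libraries. The mean was 2647 ± 274 normalised counts after guadecitabine (SD, n = 3). It was at least 836-fold higher than the floor of 3 counts in vehicle replicates 1 and 2, and 490-fold higher than vehicle replicate 3. The floor covers counting error only. The fitted log2 fold change was 10.21 (SE 0.40), and on the vehicle side it rests on the 7 counts of vehicle replicate 3. It was the second highest of the genes tested, in the contrast for which TKTL1 was chosen, and nothing is read from that rank. Without vehicle replicate 3 it was 14.29, a value set by the treatment of zeros in the fit and not a measure of size.

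The 7 counts of TKTL1 in vehicle replicate 3 amount to 2.66 counts per kb of exon. Over the 2038 genes that were at 0 in the other vehicle libraries, the median in this library was 7.72 counts per kb, with a range of 3.90 to 16.5 from the 10th to the 90th percentile. TKTL1 was thus at the low end of what unexpressed genes showed there, at the percentile 3.43.

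TKT, the main transketolase gene, was lower after guadecitabine. Vehicle libraries held 20133, 21240 and 19586 normalised counts of TKT, and guadecitabine libraries held 8914, 9810 and 10417. The highest treated library lay far below the lowest vehicle library, so that the groups did not overlap. The log2 fold change was -1.06 (SE 0.10), or 2.09-fold lower. It stayed between -1.12 and -1.01 with each library left out.

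TKTL2 was at the edge of detection in every library. It had 0, 0 and 17 counts in vehicle replicates 1, 2 and 3 and 13, 5 and 9 counts in the guadecitabine replicates, 27 in all. The groups overlapped through vehicle replicate 3 alone, whose 6.07 counts per kb lay at the percentile 33.2 of the genes at 0 in the other vehicle libraries. The log2 fold change was 1.06 (SE 1.19) with that library. Without it, TKTL2 was at least 3.13-fold higher after guadecitabine than the floor of 3 counts in vehicle replicates 1 and 2, and the fitted value was 6.25.

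**Figure D1:**
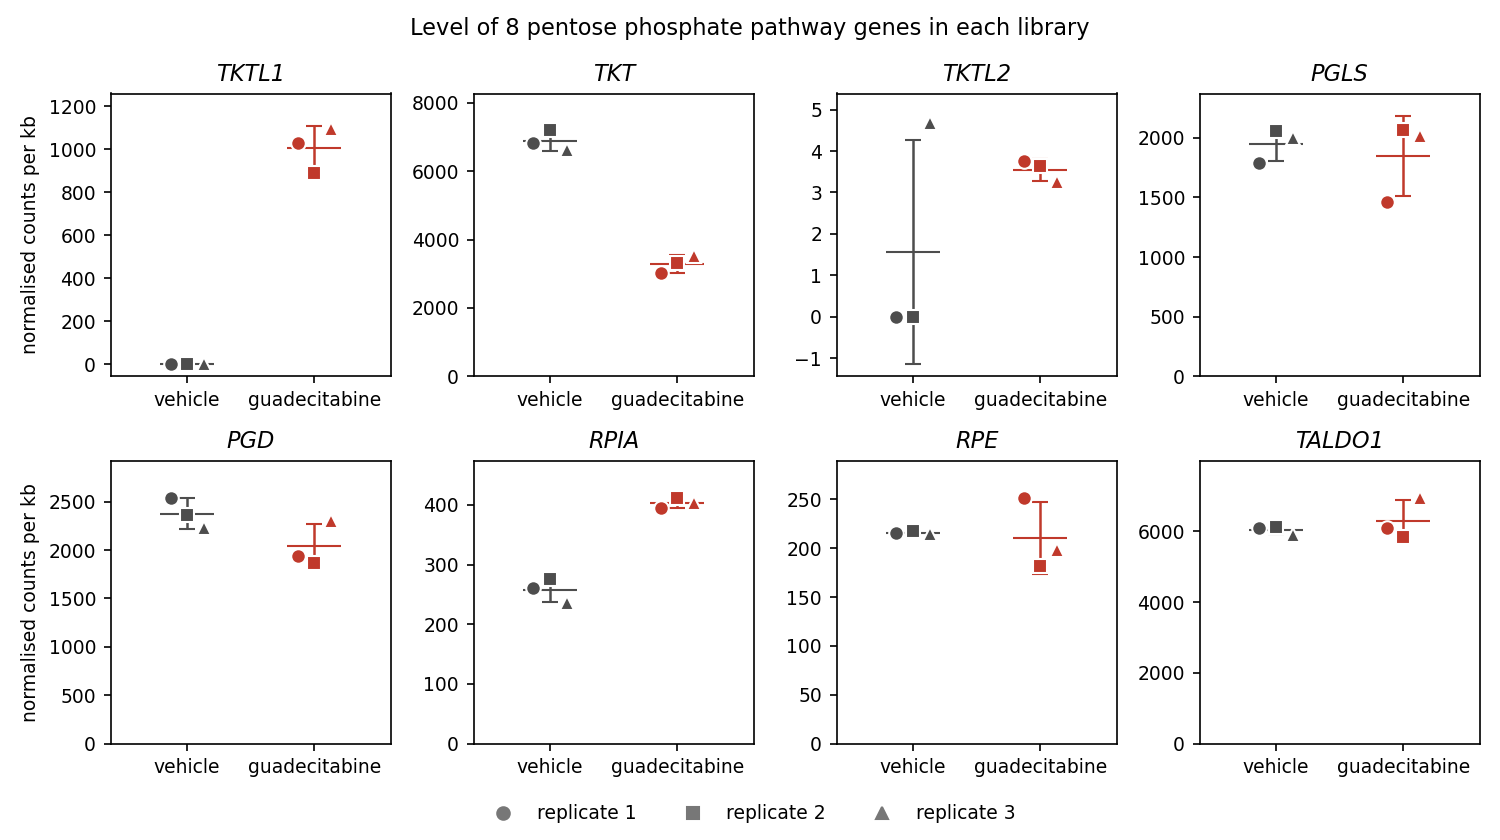
Level of each gene in normalised counts per kb of counted exon, on linear axes that differ between panels, in 3 vehicle and 3 guadecitabine libraries. Symbols are libraries, lines are means and bars are SD. TKTL1 lies near 0 in vehicle and between 891 and 1094 after guadecitabine, TKT lies lower and RPIA higher after guadecitabine without overlap, and the TKTL2 value of vehicle replicate 3 lies above all treated libraries.

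Levels of different genes can be compared only per length of transcript, so that normalised counts were divided by the kb of exon counted for each gene. Per kb, the vehicle libraries held 6820, 7195 and 6641 counts of the transketolase family as a whole, nearly all of it TKT, and the guadecitabine libraries held 4053, 4218 and 4626. The family sum was therefore lower in every treated library than in any vehicle library, although TKTL1 had been added. TKTL1 gained 1004 counts per kb on average while TKT lost 3593, so that the gain was 28.0% of the loss. TKTL1 made up 25.4%, 21.1% and 23.7% of the family in guadecitabine replicates 1, 2 and 3, a mean of 23.4% ± 2.15 (SD, n = 3), against 0%, 0% and 0.0309% in the vehicle replicates. TKT remained the more abundant of the family in each treated library, by 2.93, 3.73 and 3.22 times the level of TKTL1. TKTL2 did not exceed 0.0927% of the family in any library.

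**Figure D2:**
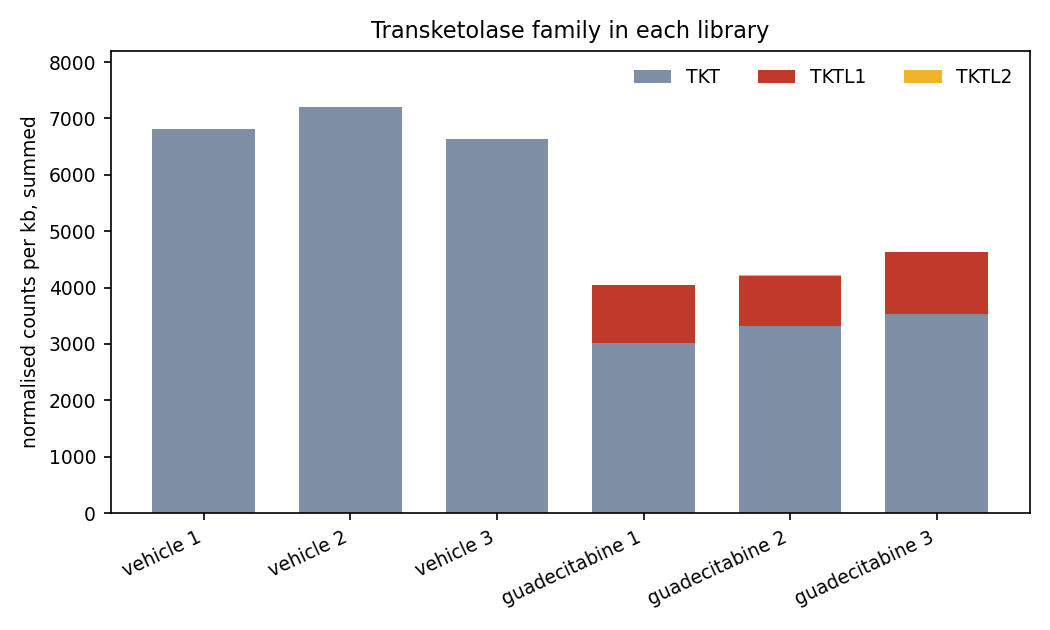
Summed level of the transketolase genes in each library, in normalised counts per kb, with TKT in grey, TKTL1 in red and TKTL2 in yellow. Vehicle bars reach 6641 to 7195 and are TKT almost alone; guadecitabine bars reach 4053 to 4626, of which 21.1% to 25.4% is TKTL1.

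TALDO1, which encodes transaldolase, the partner of transketolase in the non-oxidative branch, did not follow TKT. Its normalised counts were 7583, 7601 and 7324 in the vehicle libraries and 7587, 7253 and 8630 in the guadecitabine libraries. The groups overlapped, with a log2 fold change of 0.06 (SE 0.10). The level of TKT per level of TALDO1, both per kb, was 1.12, 1.18 and 1.13 in the vehicle libraries and 0.495, 0.569 and 0.508 in the guadecitabine libraries. With TKTL1 counted together with TKT, the treated libraries came to 0.663, 0.722 and 0.666, still below each vehicle library.

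The enzymes that act on ribulose 5-phosphate differed from each other. RPIA encodes the isomerase that makes ribose 5-phosphate, the sugar of nucleotides, and had 479, 507 and 432 normalised counts in the vehicle libraries against 725, 755 and 740 in the guadecitabine libraries. All treated libraries lay above all vehicle libraries, with a log2 fold change of 0.65 (SE 0.10). RPE encodes the epimerase that makes xylulose 5-phosphate, a substrate of transketolase, and had 367, 371 and 365 normalised counts in the vehicle libraries against 428, 309 and 337 in the guadecitabine libraries. Its treated libraries spread to both sides of the vehicle libraries, with a log2 fold change of -0.03 (SE 0.14). The level of RPIA per level of RPE, per kb, was 1.21, 1.27 and 1.10 in the vehicle libraries and 1.57, 2.27 and 2.04 in the guadecitabine libraries. Of the stretches of 50 bases in RPE, 90.0% were unique in the genome, so that part of its reads may be split with near copies. Those of RPIA were 100% unique. The RPE transcript searched has 3180 exon bases against 1703 in the one counted, so that the share for the counted exons may differ.

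The 2 enzymes of the oxidative branch among the members differed little between the groups. PGLS, the lactonase of the branch, had 1851, 2130 and 2068 normalised counts in the vehicle libraries against 1508, 2133 and 2083 in the guadecitabine libraries. Guadecitabine replicate 1 was the lowest and the other treated libraries lay within or next to the vehicle range, with a log2 fold change of -0.08 (SE 0.14). PGD, which encodes the dehydrogenase that forms NADPH and ribulose 5-phosphate, had 5773, 5381 and 5056 normalised counts in the vehicle libraries against 4403, 4252 and 5242 in the guadecitabine libraries. Guadecitabine replicate 3 lay above vehicle replicate 3 and the others below all vehicle libraries, with a log2 fold change of -0.22 (SE 0.11). Of the 50-base stretches in PGD, 91.6% were unique, which leaves its level less certain than that of PGLS with 100%.

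Of the 8 members, TKTL1 and RPIA were higher and TKT was lower without overlap between the groups, and the groups overlapped for 5. Over all genes tested, 26.6% were higher and 25% were lower without overlap. Without vehicle replicate 3, TKTL2 joined the members that were higher and PGD those that were lower, while the shares of all genes were 34.1% and 30.8%. The members were named with these values known, and nothing is read from their number. Their median log2 fold change was 0.02, and that of all genes tested was also 0.02, with 5% of genes below -1.24 and 5% above 1.53.

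The order of levels within the pathway changed at TKTL1 and TKT. In vehicle-treated cells the mean level per kb was 6883 for TKT, 6036 for TALDO1, 2376 for PGD, 1950 for PGLS, 258 for RPIA and 216 for RPE, and no neighbours in this order overlapped. TKTL2, at 1.56, and TKTL1, at 0.684, came last and overlapped each other. Both of these means came from vehicle replicate 3 alone, so that the order of TKTL2 and TKTL1 in vehicle carries no weight. After guadecitabine TALDO1 stood first with 6294, before TKT with 3290, PGD with 2037 and PGLS with 1845, of which PGD and PGLS overlapped. TKTL1 followed with 1005, above RPIA with 404, RPE with 210 and TKTL2 with 3.54, and none of these overlapped. Among all 17100 transcripts, the mean level per kb of TKTL1 lay at the percentile 0.497 in vehicle and 89.4 after guadecitabine, while TKT lay at 98.9 and 97.1. The vehicle percentile of TKTL1 rests on vehicle replicate 3, as TKTL1 was 1 of 2038 genes at 0 in the other vehicle libraries.

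Other genes of pentose and ribose metabolism were read from the same fit across all genes, in which 37.7% of genes passed an adjusted p of 0.05, 19.3% as higher and 18.4% as lower. Of 13 such genes, 2 rose, 4 fell and 7 did not pass, with a median log2 fold change of -0.06. TIGAR, listed in the table by its older symbol C12orf5, encodes a phosphatase that lowers fructose 2,6-bisphosphate and so favors the pentose phosphate pathway over glycolysis. It had 197, 229 and 226 normalised counts in the vehicle libraries and 562, 531 and 464 in the guadecitabine libraries, and it rose by a log2 fold change of 1.25 (SE 0.13, edgeR quasi-likelihood test with Benjamini-Hochberg adjustment, adjusted p = 8.62e-05). PGM2, which converts ribose 1-phosphate to ribose 5-phosphate, rose by 0.51 (SE 0.16, edgeR adjusted p = 0.028).

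H6PD, which carries out the first steps of the pathway inside the endoplasmic reticulum, fell. Its normalised counts were 3451, 3342 and 3007 in the vehicle libraries and 1265, 1569 and 1378 in the guadecitabine libraries, with a log2 fold change of -1.22 (SE 0.12, edgeR adjusted p = 6.62e-05). PGM1, which links glucose 1-phosphate from glycogen to glucose 6-phosphate, fell with -0.86, DERA, the deoxyribose-phosphate aldolase, with -0.61, and SHPK, which phosphorylates sedoheptulose, with -0.41 (edgeR adjusted p of 0.000337, 0.00117 and 0.039). The call for SHPK was lost with the replicate number as a block, with DESeq2, with library totals only, without a filter, and without each of vehicle replicates 1 and 2 and guadecitabine replicates 1, 2 and 3 in turn. That for PGM2 was lost without each library other than guadecitabine replicate 2. Over the alternatives the adjusted p ran from 0.0382 to 0.192 for SHPK and from 0.00954 to 0.0822 for PGM2. PRPS1, the enzyme that turns ribose 5-phosphate into the precursor of nucleotides, was at 0.31 and did not pass the test.

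Transketolase needs thiamine diphosphate, and genes of thiamine transport and of other enzymes that use this cofactor were examined next. Of 13 genes tested, 2 rose and 2 fell, beside 19.3% higher and 18.4% lower among all genes, with a median of -0.03. HACL1, a thiamine-dependent lyase of peroxisomes, rose by 0.88, while BCKDHA and BCKDHB, subunits of the enzyme that degrades branched-chain keto acids, fell with -1.34 and -1.04 (edgeR adjusted p of 0.00254, 9.15e-05 and 0.00224). The plasma membrane carrier SLC19A2 had a log2 fold change of -0.0012 and did not pass.

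Of 10 genes that supply NADPH or its precursor NADP outside the pathway, 3 fell, 0 rose and 7 did not pass the test. Among all genes, 18.4% were lower and 19.3% higher, and the median of the list was -0.28. IDH1, the cytosolic isocitrate dehydrogenase, had 1175, 1305 and 1274 normalised counts in the vehicle libraries and 430, 269 and 404 in the guadecitabine libraries, with a log2 fold change of -1.75 (SE 0.16, edgeR adjusted p = 6.08e-05). ME3, a mitochondrial malic enzyme, fell with -1.21 and NNT, the transhydrogenase of the inner mitochondrial membrane, with -1.03 (edgeR adjusted p of 2.92e-05 and 0.00018). Without vehicle replicate 3, 5 genes of this list passed. Of 16 genes of nucleotide synthesis, which uses the ribose 5-phosphate of the pathway, 2 rose and 3 fell, with a median of 0.10. PPAT, the first enzyme of purine synthesis, rose by 0.66 and GART, which follows it, by 0.86 (edgeR adjusted p of 0.00623 and 0.00321). The pyrimidine genes DHODH, CAD and CTPS2 fell with -0.95, -0.47 and -0.44 (edgeR adjusted p of 0.00141, 0.00505 and 0.0414). The rest of this list, with genes of purine and of pyrimidine synthesis alike, did not pass the test. The call for CTPS2 was lost under 8 of the alternatives, among them the replicate block, with an adjusted p of up to 0.146.

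**Figure D3:**
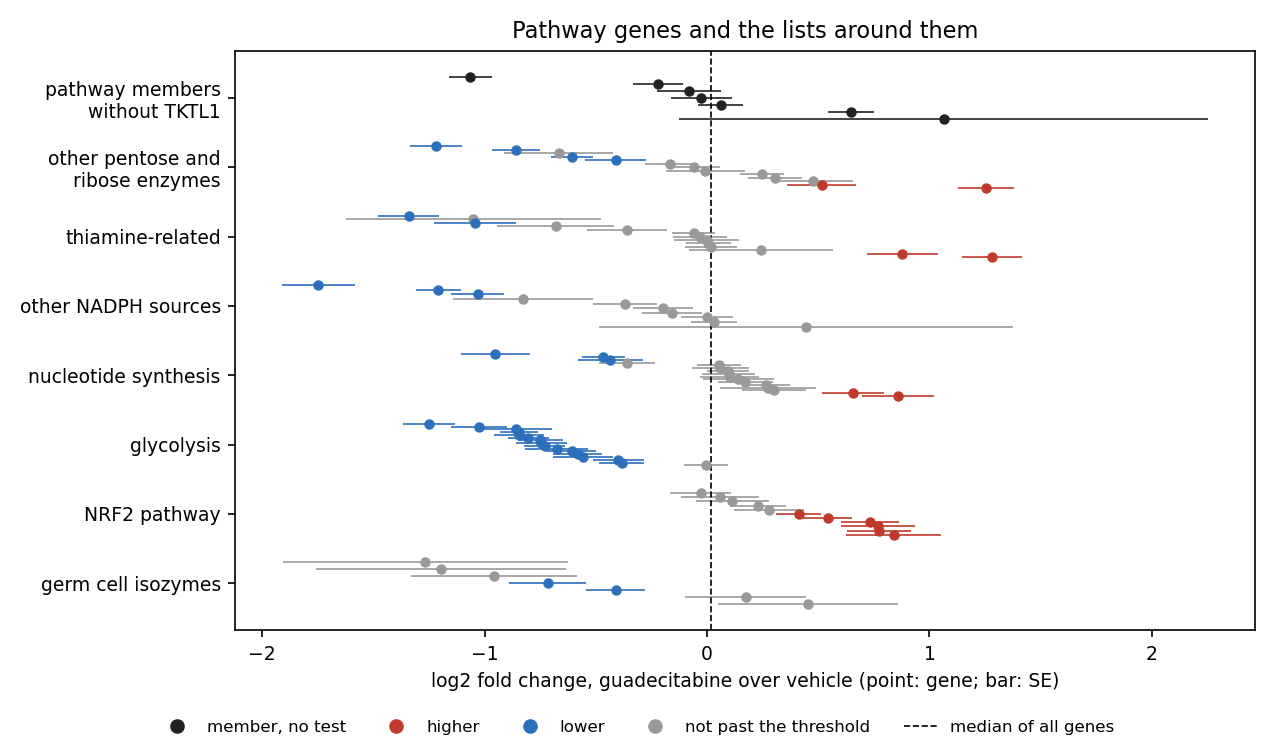
Log2 fold change after guadecitabine of the pathway members other than TKTL1 and of the genes tested in 7 lists, with SE as bars. Black points are members, which were not tested, red and blue points passed an adjusted p of 0.05 as higher and lower, grey points did not, and the dashed line is the median of all genes. TKT and RPIA lie on opposite sides of 0, and glycolysis genes lie to the left with 15 of 16 lower, beside 18.4% of all genes.

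Genes around TKTL1 on chromosome X were read from the same fit. Within 500 kb to either side, 32 genes were tested, of which 7 rose and 9 fell, beside 19.3% and 18.4% of all genes, with a median log2 fold change of -0.07 and a range of -1.93 to 8.53. Without vehicle replicate 1 or guadecitabine replicate 3, 10 passed in place of 16. The closest gene tested, FLNA, which encodes filamin A and lies 18187 bp away, fell with -0.72 (SE 0.10, edgeR adjusted p = 0.000567). The next ones in distance were EMD at 0.02, which did not pass, RPL10 at -0.53 and DNASE1L1 at 0.40 (edgeR adjusted p of 0.885, 0.00543 and 0.0188).

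The neighbour with the largest rise was CTAG2, a cancer/testis antigen gene, 321533 bp away. It had 1, 0 and 2 counts in the vehicle libraries and 305, 259 and 378 counts in the guadecitabine libraries, with a fitted log2 fold change of 8.53 (SE 0.51, edgeR adjusted p = 3.96e-06). AVPR2, the vasopressin receptor of the kidney, had 2, 1 and 1 counts against 13, 15 and 20, and RENBP, an epimerase of amino sugars, had 2, 0 and 8 against 33, 9 and 17 (edgeR adjusted p of 0.00585 and 0.0323). CTAG2, AVPR2 and RENBP, like TKTL1, passed the filter on low counts by the treated cells alone. Without those counts they would not have been tested, which limits their adjusted p and their place among the neighbours that rose. ARHGAP4 rose by 1.63, and PLXNB3, a semaphorin receptor, and TMEM187 fell with -1.93 and -0.86 (edgeR adjusted p of 0.00396, 1.80e-05 and 0.00287). The call for RENBP was lost without the filter and without each library other than vehicle replicate 3, with an adjusted p of up to 0.134.

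**Figure D4:**
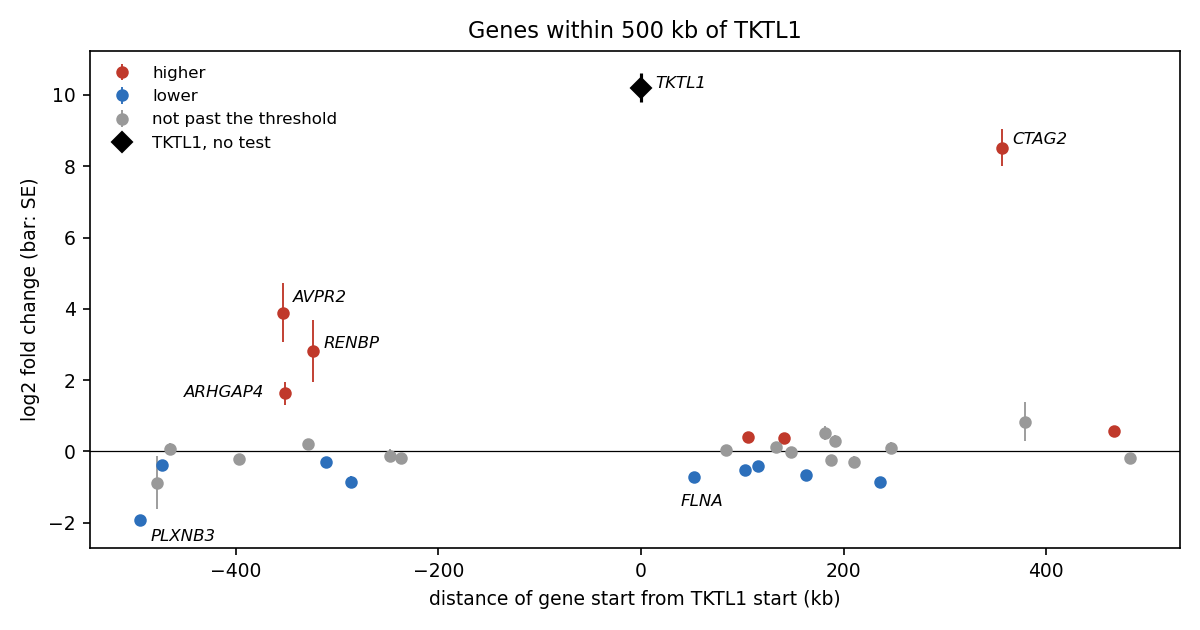
Log2 fold change, with SE as bars, of the 32 genes tested within 500 kb of TKTL1, against the distance in kb of the gene's first base from that of TKTL1. TKTL1, which was not tested, is the black diamond at 10.21, and CTAG2 at 8.53 is the only neighbour above 4.

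The genes whose pattern was most like that of TKTL1 were found by the Pearson correlation of log2 CPM (counts scaled to library size) over the 6 libraries. The highest were RNF44, PAGE5, MAGEA4, VCX3B and MAGEB2, with r from 0.9992 to 0.9994. Of these 5, 4 are cancer/testis genes on chromosome X, and RNF44 is a ring finger gene on chromosome 5. The share of cancer/testis genes among all genes tested is not given here, and nothing is read from their number. MAGEA4, VCX3B and MAGEB2, like TKTL1, passed the filter on low counts by the treated cells alone. With 2 groups that stand far apart, a gene with a tight difference in the same direction reaches such an r, and 213 genes had an r of at least 0.99. RNF44 was higher by 0.69 on the log2 scale, from 511 to 558 normalised counts in the vehicle libraries to 843 to 867 in the guadecitabine libraries. VCX3B belongs to a family of near-identical copies, so that its own level is uncertain.

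By the distance between levels, which also takes account of size, the closest were UCHL1, DAZL, CCL20, CXCL5 and MAGEB2, at 1.65 to 1.97 on the log2 scale. UCHL1 encodes a ubiquitin hydrolase of neurons and germ cells and had 0, 1 and 15 counts in the vehicle libraries against 5266, 2023 and 4623 after guadecitabine. DAZL, a germ cell RNA-binding protein gene, had 0, 0 and 24 counts against 2535, 880 and 1726, and CCL20, a chemokine gene, had 3, 1 and 3 against 2071, 1132 and 1698. As for TKTL1, most of the vehicle counts of UCHL1 and DAZL were in vehicle replicate 3. UCHL1, DAZL, CCL20, CXCL5 and MAGEB2 also passed the filter on low counts by the treated cells alone.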

How the data were processed

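RNA from 3 vehicle and 3 guadecitabine libraries of MDA-MB-231 cells was sequenced, and libraries were assigned to groups and replicates by their labels. The authors aligned reads to hg19 with STAR 2.3.1z and deposited raw counts of exon reads per RefSeq transcript from iRNA-seq, with the exon length counted. Whether strand was used, and how reads with several matches were treated, is not given in the sources used here. The deposited table also holds 6 columns of log2 values from the authors' transformation and the results of their own DESeq2 comparison, which were not used.

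The quasi-likelihood test of edgeR 4.0.16 (R 4.3.3) was run on the counts after filterByExpr with a minimum count of 10 and TMM scaling. p-values of the 13322 genes kept were adjusted by Benjamini-Hochberg, with a threshold of 0.05. Standard errors were derived from the F statistic. Normalised counts refer to a library of average total, and levels between genes were compared per kb. Deposited starts were raised by 1 to count from 1. Exons were taken from the canonical transcripts of GENCODE release 44 on GRCh37, and 50-base stretches were counted over the genome with Python 3.11.15. The fit was tested on simulated data. Library totals ranged from 8792127 to 22277442 counts, and the floor was set at 3 counts in a library. No libraries held the same counts.

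The members and lists were chosen with earlier results of these data known. The text names every member, up to 4 genes higher and 4 lower in each list and among the neighbours by size of change, germ cell isozymes with at least 11 counts over the guadecitabine libraries, and the 5 genes most like TKTL1 by each measure. Some genes that this rule picks are not reported here. Listed symbols were matched by name or RefSeq accession. Alternatives were a block for the replicate number, DESeq2 1.42.0, its size factors, library totals only, no filter, at least 10 counts in every library, and each library left out.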

Additional observations from a re-analysis of the deposited data

How the results depend on the processing

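The 8 members kept their direction under each alternative, except that PGLS, RPE and TALDO1, whose log2 fold changes lay near 0, crossed it when a library was left out, and RPE also with library totals only. When single libraries were left out, TKTL1 ran from 9.69 to 14.29 and TKTL2 from 0.52 to 6.25 on the log2 scale, the upper values being those without vehicle replicate 3, where the other vehicle libraries were at 0. Over all genes tested, 1706 to 3002 were higher and 1629 to 2575 were lower. The numbers past the threshold ran from 3 to 5 for NADPH sources, from 0 to 3 for germ cell isozymes and from 10 to 16 for neighbours of TKTL1. Without a filter, 1 germ cell isozyme passed in place of 2. Same-numbered libraries deviated from their group means with correlations of -0.050, 0.049 and -0.037. As vehicle replicate 3 stood apart, these values cannot tell whether such libraries share an experiment. With the replicate number as a block, 2424 genes were higher and 2230 lower. Under the block TKTL1 was at 10.24, TKT at -1.07 and TKTL2 at 2.06. Of 36 genes picked from the lists and the neighbours, 0 reversed under any alternative and up to 6 lost their call, the most without guadecitabine replicate 3. TKTL1 and TKTL2 could not be fitted with at least 10 counts required in every library. Depth limits TKTL2 most, with at most 17 counts in a library.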

Other observations

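The mRNA of most genes of glycolysis, which shares glucose 6-phosphate with the pentose phosphate pathway, was lower after guadecitabine. Of 16 genes, 15 fell and 0 rose, beside 18.4% lower and 19.3% higher among all genes tested. Their median log2 fold change was -0.74, against 0.02 over all genes tested. ENO1 had 185492, 201139 and 154268 normalised counts in the vehicle libraries and 68320, 78278 and 81112 in the guadecitabine libraries, with a log2 fold change of -1.25 (SE 0.12, edgeR adjusted p = 6.04e-05). LDHA, which makes lactate, fell with -1.03, PFKL, a phosphofructokinase, with -0.86 and GAPDH with -0.85 (edgeR adjusted p of 0.000275, 0.00316 and 9.32e-05). HK1, at -0.0051, did not pass.

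The genes listed for the NRF2 pathway, a response to oxidants that includes glutathione synthesis genes, either rose or did not pass the test. This list holds none of the pentose phosphate pathway members and none of the NADPH genes given above. Of the 11 listed genes, 6 rose and 0 fell, with a median of 0.41. Among all genes tested, 19.3% were higher and 18.4% were lower. SLC7A11, the cystine carrier, rose by 0.84, GCLC, the rate-limiting enzyme of glutathione synthesis, by 0.77, BACH1, a repressor of such genes, by 0.77 and SRXN1 by 0.73 (edgeR adjusted p of 0.0141, 0.00299, 0.00631 and 0.00227). NFE2L2, which encodes NRF2 itself, was at 0.28 and NQO1 at -0.03, and neither passed.

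Of 13 other metabolic isozymes of male germ cells, 11 were in the table and 7 were tested, of which 0 rose and 2 fell. Among all genes, 19.3% were higher and 18.4% were lower. PGAM4, at -0.72, and GLUD2, at -0.41, are copies of broadly expressed genes, with 57.3% and 77.8% of 50-base stretches unique, so that their reads may be shared (edgeR adjusted p of 0.0108 and 0.0362). The call for GLUD2 was lost without a filter and without each of vehicle replicates 1 and 2 and guadecitabine replicates 2 and 3 in turn, with an adjusted p of up to 0.146, and that for PGAM4 without guadecitabine replicate 3, with an adjusted p of 0.0508. The log2 fold changes of PGK2, PDHA2, GAPDHS, PRPS1L1 and ENO4 were -0.96, 0.45, -1.27, 0.17 and -1.20, and none passed. COX8C had 0, 0 and 1 counts in the vehicle libraries and 9, 5 and 9 counts after guadecitabine, below the filter. Of the germ cell markers, 2 of 5 were in the table, and their summed level was 0 to 23.9 normalised counts in the vehicle libraries and 34.6 to 46.1 in the guadecitabine libraries. The upper vehicle value was that of vehicle replicate 3.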
